A study of Mus musculus with 15 samples.

Results

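Resident-like arterial macrophages are described here through 10 marker genes, namely Lyve1, Folr2, Timd4, F13a1, Mrc1, Cd163, Cbr2, Sepp1 (now Selenop), Vsig4 and Cd209f. They were taken by symbol from a count table of 47729 annotated features, and all 10 listed members were found in it. RNA was measured in macrophages sorted from the aorta as F4/80+ CD64+ cells, divided into libraries labelled Olfr2+ and Olfr2- by the odorant receptor Olfr2. Both groups came from Apoe-/- mice (genotype tag "Apoe dko mice"), which lack apolipoprotein E and develop atherosclerosis, after 4 weeks on a high fat (Western) diet. Per the labels, aortas of 4 female mice were pooled, each sort held 100 to 200 cells, and the sorts were technical replicates of the pool. The mice's age is not given in the sources used here. There were 3 numbered samples labelled Olfr2+ (2, 3 and 4), spread over 10 columns of the table, and 3 labelled Olfr2- (1, 3 and 4), spread over 5. P-values therefore measure the spread between sorts, which may be technical, and not the spread between mice.

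Macrophages of the arterial wall include long-lived cells that settle early, sit mostly in the adventitia and renew themselves locally, beside cells that monocytes replenish. The resident-like state is known by receptors for hyaluronan, folate, mannose, haemoglobin and dying cells, together with secreted and enzymatic products. The transcription factor MAF and signalling through the CSF1 receptor are known to sustain it, and PU.1 is required for macrophages in general. None of the 10 genes is exclusive to these cells. Lyve1 also marks lymphatic endothelium, F13a1 is made by megakaryocytes, Vsig4 and Timd4 are strong in liver Kupffer cells, and Sepp1 is secreted by many cell types.

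Cbr2 and Sepp1, the members that passed the test described below, are shown with the sequence around a gene start, so that letters recognised by factors of this lineage can be read in place. The windows run from 250 bases before to 50 after the start and come from RefSeq on GRCm38.p6. Capitals mark TGCTGA, a core stretch of the MAF recognition element, or GAGGAAGT, a PU.1 recognition sequence, both searched on either strand, so that TCAGCA and ACTTCCTC are their reverse complements. Cbr2 is on the minus strand at chr11:120731972-120732271, and Sepp1, listed as Selenop, is on the plus strand at chr15:3270561-3270860. Sepp1 also has other RefSeq windows, of which that at chr15:3270727-3271026 held neither stretch.
Cbr2: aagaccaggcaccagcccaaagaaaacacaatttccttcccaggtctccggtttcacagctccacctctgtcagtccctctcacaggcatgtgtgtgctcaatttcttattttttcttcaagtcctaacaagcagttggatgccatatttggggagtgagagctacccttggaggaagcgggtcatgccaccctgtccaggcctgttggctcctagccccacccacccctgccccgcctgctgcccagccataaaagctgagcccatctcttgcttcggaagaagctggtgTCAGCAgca
Sepp1: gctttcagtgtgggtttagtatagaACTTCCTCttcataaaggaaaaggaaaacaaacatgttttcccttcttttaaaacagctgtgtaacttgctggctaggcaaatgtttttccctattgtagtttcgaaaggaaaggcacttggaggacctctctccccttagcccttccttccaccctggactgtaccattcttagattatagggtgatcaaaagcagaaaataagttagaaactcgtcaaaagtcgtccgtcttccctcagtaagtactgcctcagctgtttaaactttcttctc

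RefSeq windows were matched for 9 of the 10 members, 13 windows in all. The letters TGCTGA were in at least 1 window of 4 of the 9 members with a window (Folr2, Timd4, Cbr2 and Vsig4), and in at least 1 window of 21.7% of all 27025 genes. The PU.1 letters were in at least 1 window of 2 of the 9 (F13a1 and Sepp1), and of 3.69% of all genes. Counted by window, 19.5% of all 32851 windows held TGCTGA and 3.20% held the PU.1 letters. The members thus did not share either motif as a group, and a match or its absence describes only the letters of these windows.

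The columns differed in depth and in content. The 7 columns above 60 M counts (M, 1000000) were all labelled Olfr2+ (2A to 2D and 3A to 3C) and held 76.0 to 95.6 M each, while the 3 other Olfr2+ columns (3D, 4A, 4B) held 29.9 to 37.6 M and the 5 Olfr2- columns 30.5 to 53.2 M. The Olfr2 transcript went against the label, with 1, 9 and 8 counts in samples 2, 3 and 4 labelled Olfr2+ and 76, 34 and 35 counts in samples 1, 3 and 4 labelled Olfr2-. Directions are therefore between libraries as labelled. Both sort markers had counts in every column, Adgre1 (F4/80) at 46.0 to 312 CPM (counts per 1000000 of the column total) in Olfr2+ and 9.48 to 235 CPM in Olfr2-, and Fcgr1 (CD64) at 0.544 to 103 CPM in Olfr2+ and 4.18 to 19.95 CPM in Olfr2-. Genes of other cells were also present. The 10 fibroblast markers summed to 48500 to 68508 CPM in the deeper Olfr2+ columns, 3269 to 6124 CPM in the other Olfr2+ columns and 3051 to 4900 CPM in Olfr2-. The 6 B cell markers summed to 213 to 5391, 35209 to 54905 and 22929 to 41534 CPM in the same order.

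**Figure D1:**
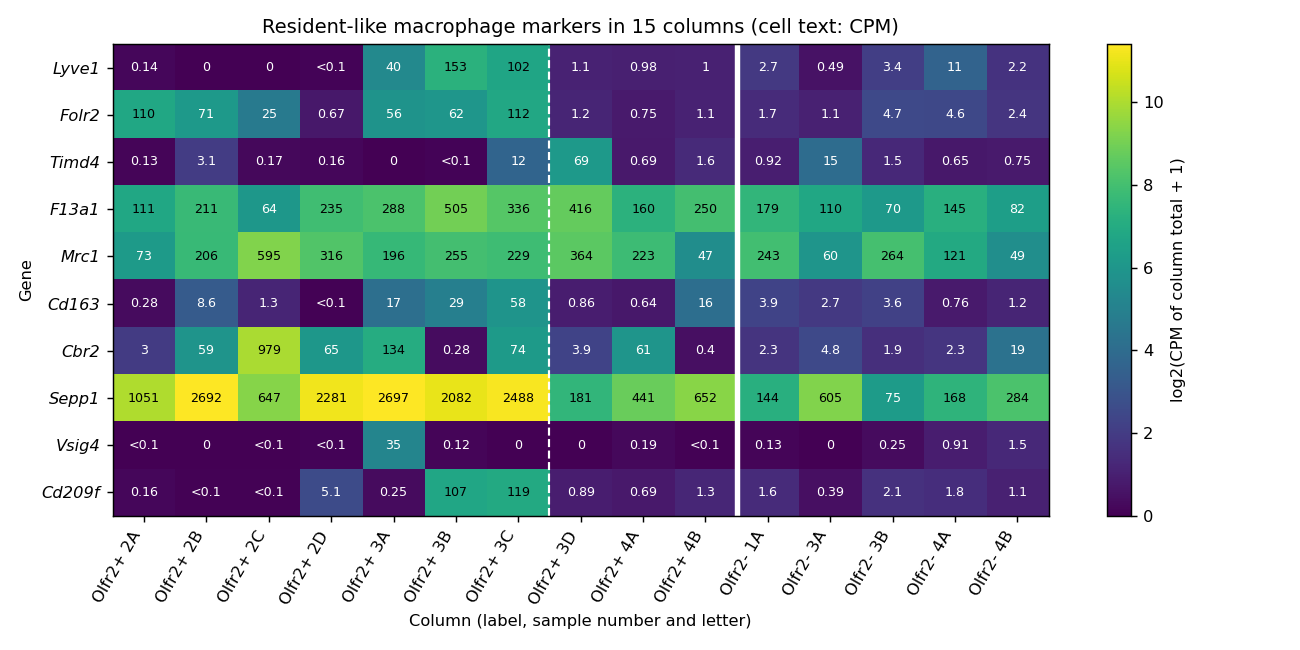
Levels of the 10 markers (rows) in the 15 columns of the count table (x axis, Olfr2+ left of the solid line, Olfr2- right of it; the dashed line divides the Olfr2+ columns above 60 M counts from those below). Colour is log2(CPM + 1) and the text in each cell is CPM. Sepp1, Mrc1 and F13a1 are above 45 CPM in every column, whereas Lyve1, Cd209f and Vsig4 reach over 30 CPM in no column outside Olfr2+ 3A, 3B and 3C.

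Over all columns, summed per numbered sample, all 10 members had a higher fitted level in the libraries labelled Olfr2+, and 2 of them rose past the test. The median over single columns was nonetheless lower in Olfr2+ for Lyve1 (1.01 against 2.66 CPM in Olfr2-) and Timd4 (0.433 against 0.919 CPM). It was lower as well for Vsig4 (0.0284 against 0.251 CPM) and Cd209f (0.789 against 1.64 CPM), and higher for the other members. Cbr2 and Sepp1 rose, 0 members fell and 8 did not pass (edgeR quasi-likelihood test, Benjamini-Hochberg adjusted p under 0.05, 10 of 10 members tested), although 8 had an unadjusted p under 0.05, as did 7821 of all 24362 genes tested. Of the genes tested, 1.12% were called higher in Olfr2+ and 0.46% lower. The median log2 fold change of the members, Olfr2+ over Olfr2-, was 3.86, and that of all genes tested was 0.24. Better-expressed genes were also shifted. Among genes averaging at least 10 CPM over the samples, the median was 3.86 for 8 members and 1.85 for all genes. Of those 9077 genes 501 were called higher and 5 lower, and 2 of the 8 members were called. In 6 members (F13a1, Mrc1, Cd163, Cbr2, Sepp1 and Cd209f) all 3 Olfr2+ samples lay above all 3 Olfr2- samples, as they did for 13.5% of all genes tested. In these bulk sorts, fewer cells of a type and less RNA per cell cannot be told apart.

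In the columns below 60 M counts, where both labels have libraries of like depth, edgeR called 0 of the 9 members tested, and 0 members had an unadjusted p under 0.05. There 0% of all 29989 genes tested were called, and 3127 had an unadjusted p under 0.05. DESeq2 called 1250 genes but 0 members there, and limma-voom called 0 of either. The comparison held 2 Olfr2+ samples (3 and 4) and 3 Olfr2- samples. Of the 9 members 7 were positive and 2 (Lyve1 and Folr2) negative, with a median log2 fold change of 1.54 against -0.43 for all genes tested. Among genes averaging at least 10 CPM over these samples, the median was 2.08 for 5 members and 0.86 for all genes. F13a1 and Mrc1 were higher in both Olfr2+ samples than in all 3 Olfr2- samples, as were 9.28% of all genes tested. Since the deeper set has Olfr2+ columns alone, the label and the depth set cannot be told apart above 60 M counts. The 2 comparisons share all of their Olfr2- libraries.

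**Figure D2:**
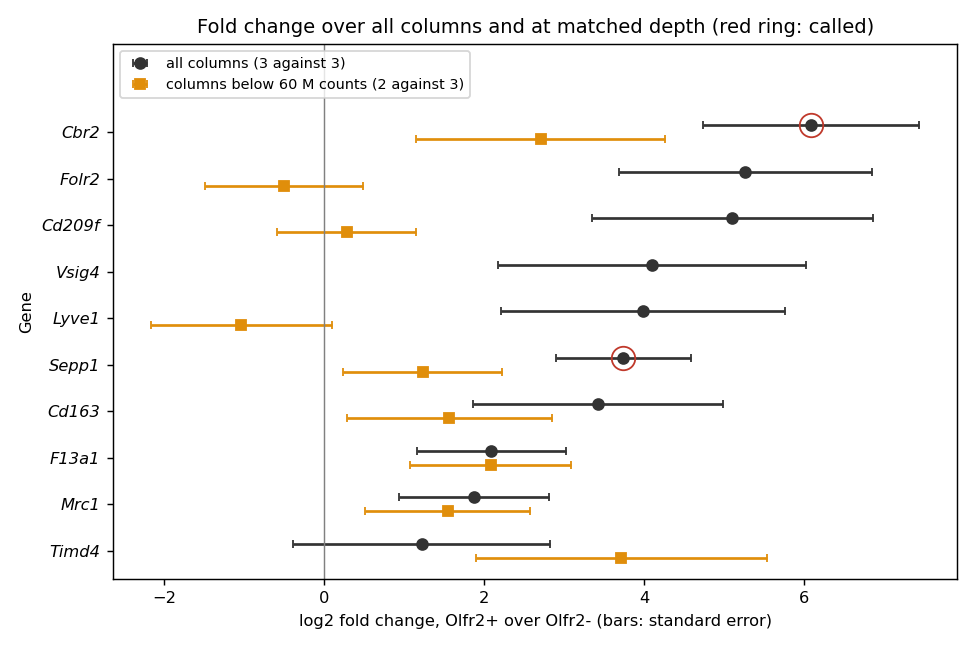
Log2 fold change of each marker, Olfr2+ over Olfr2- (x axis, bars show the standard error), over all columns (circles, 3 samples against 3) and in the columns below 60 M counts (squares, 2 against 3; Vsig4 was not tested there). Red rings mark the called genes, Cbr2 and Sepp1 over all columns, and F13a1 and Mrc1 are the members whose 2 values are closest.

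Among the secreted and enzymatic members, Sepp1 and Cbr2 rose over all columns. Sepp1 (ENSMUSG00000064373.11) encodes selenoprotein P, the plasma selenium carrier. It was at 3476, 3054 and 616 CPM in Olfr2+ samples 2, 3 and 4 and at 87.5, 305 and 144 CPM in Olfr2- samples 1, 3 and 4, after TMM scaling (edgeR's scaling by trimmed mean of M values, used for all levels given per sample). All 3 Olfr2+ samples were above all 3 Olfr2- samples, and sample 4, which has no column above 60 M counts, was the lowest of the Olfr2+ samples. The log2 fold change was 3.74 ± 0.84 (SE, adjusted p = 0.0370 by edgeR), and it was 1.23 ± 0.99 (SE, adjusted p = 0.665 by edgeR) in the columns below 60 M counts, where the groups overlapped. With the depth set as a covariate it was 1.18 (adjusted p = 0.580 by edgeR), and with scaling by library totals it was 2.50 (adjusted p = 0.0696 by edgeR). The call was also lost without Olfr2+ sample 2 or 3 and without Olfr2- sample 1 or 4, with adjusted p of 0.138, 0.0844, 0.0558 and 0.0750 by edgeR. By column Sepp1 took between 17.4 and 82.8% of the summed CPM of the 10 members, so its weight in a sum over the members varied by column.

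The level of Sepp1 moved with the depth set and with fibroblast markers. It was at 647 to 2697 CPM in the 7 deeper Olfr2+ columns, 181 to 652 CPM in the 3 other Olfr2+ columns and 75.3 to 605 CPM in the 5 Olfr2- columns. 9 of the 10 fibroblast markers rose over all columns, with decorin (Dcn) at a log2 fold change of 4.09 ± 0.69 (SE, adjusted p = 0.0181 by edgeR), and 0 of 10 passed in the columns below 60 M counts. Their part in the Sepp1 result was not tested.

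**Figure D3:**
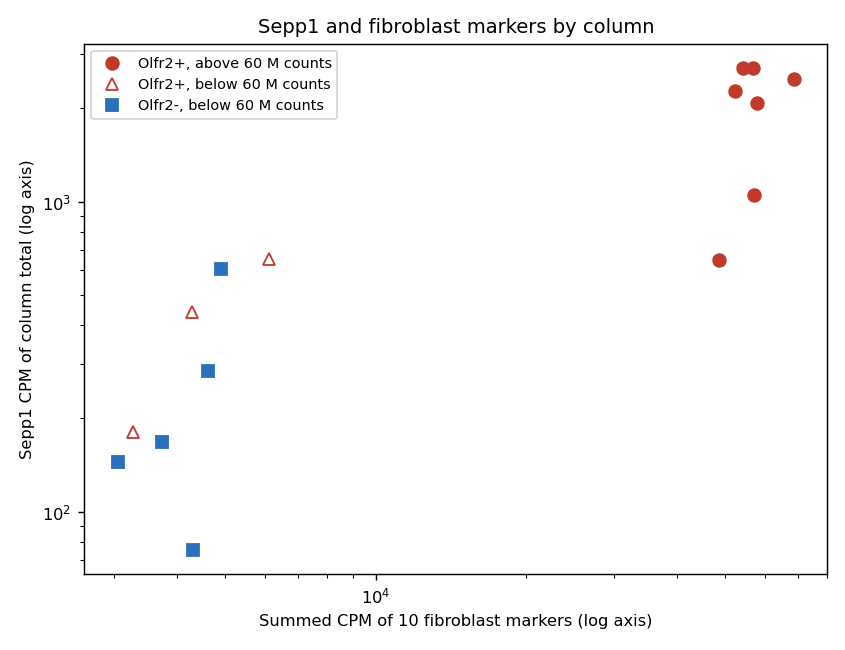
Sepp1 (y axis, CPM of the column total, log axis) against the summed CPM of 10 fibroblast markers (x axis, log axis) in the 15 columns. The 7 Olfr2+ columns above 60 M counts (filled circles) lie apart at the right, at 48500 CPM or more of fibroblast markers, and the 3 other Olfr2+ columns (open triangles) lie among the 5 Olfr2- columns (squares) on both axes apart from 4B, which is higher on each.

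Cbr2 (ENSMUSG00000025150.10), a carbonyl reductase, was at 578, 89.5 and 39.4 CPM in Olfr2+ samples 2, 3 and 4 and at 1.39, 2.77 and 6.26 CPM in Olfr2- samples 1, 3 and 4. The groups did not overlap, and sample 2 stood far above the other Olfr2+ samples. The log2 fold change of 6.08 ± 1.35 (SE, adjusted p = 0.0357 by edgeR) was the largest of the 10 members. Column 2C, at 979 CPM, held 71.0% of the CPM summed over the Olfr2+ columns, and without that column the log2 fold change was 4.34 and the call was lost (adjusted p = 0.0646 by edgeR). It was 2.71 ± 1.56 (SE, adjusted p = 0.533 by edgeR) in the columns below 60 M counts, with overlapping groups, and 2.67 (adjusted p = 0.471 by edgeR) with the depth set as a covariate. The call was lost as well without Olfr2+ sample 2 and without Olfr2- sample 1 or 3, with adjusted p of 0.168, 0.0536 and 0.0515 by edgeR. Within Olfr2+ sample 4, which lies wholly below 60 M counts, column 4A had 61.1 CPM (2294 counts) and column 4B had 0.402 CPM (12 counts). Nearly all Cbr2 counts of that sample thus came from column 4A, and column 3D, the remaining Olfr2+ column below 60 M counts, had 3.90 CPM.

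F13a1 (ENSMUSG00000039109.15), the catalytic chain of the transglutaminase coagulation factor XIII, was the member whose difference was most alike in the 2 comparisons. It was at 322, 538 and 230 CPM in Olfr2+ samples 2, 3 and 4 and at 108, 71.2 and 77.7 CPM in Olfr2- samples 1, 3 and 4, with no overlap. The log2 fold change was 2.08 ± 0.93 over all columns, where edgeR's adjusted p was 0.132, and 2.08 ± 1.00 (SE) below 60 M counts, where it was 0.484. Scaled by library totals in place of TMM it was 0.90 over all columns and 1.24 below 60 M counts. Single columns were less distinct, since Olfr2+ 2C (64.2 CPM) and 2A (111 CPM) were below the highest Olfr2- column (1A, 179 CPM). Platelets and megakaryocytes also make this gene. Of their 6 markers 5 were tested over all columns and 0 passed, and they summed to 4.15 to 117 CPM in the deeper Olfr2+ columns, 2.92 to 30.8 CPM in the other Olfr2+ columns and 6.14 to 36.7 CPM in Olfr2-. Of the platelet genes, Gp9 averaged 0.0336 CPM in Olfr2+ and 0.239 CPM in Olfr2- samples, whereas Pf4 averaged 69.7 CPM in Olfr2+ and 9.13 CPM in Olfr2- samples. Pf4 is also among the further resident-like macrophage genes given below, and alone was at 4.03 to 117 CPM in the deeper Olfr2+ columns. Gp1ba averaged 5.04 CPM in Olfr2+ and 0.576 CPM in Olfr2- samples, and Ppbp 1.38 CPM in Olfr2+ and 0.357 CPM in Olfr2- samples. Pf4, Gp1ba and Ppbp had log2 fold changes of 2.93, 3.13 and 1.94 and were not called, and Gp9 was too low to be tested. The other tested genes, Itga2b and Tubb1, were negative, and the median of the 5 was 1.94. Below 60 M counts 1 of the 6 was positive, with a median of -1.21. All 9 monocyte markers were positive in both comparisons, with median log2 fold changes of 1.54 over all columns and 1.69 below 60 M counts. Of these, 0 passed in either. They summed to 574 to 1279 CPM in the deeper Olfr2+ columns, 2272 to 3852 CPM in the others and 1232 to 3216 CPM in Olfr2-. The part of platelet or monocyte RNA in the F13a1 values was not tested.

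Of the endocytic receptors, Mrc1 was abundant in all libraries and the others were high in a few. Mrc1 (ENSMUSG00000026712.3), the mannose receptor CD206, was at 620, 344 and 167 CPM in Olfr2+ samples 2, 3 and 4 and at 147, 102 and 59.3 CPM in Olfr2- samples 1, 3 and 4. The groups did not overlap, but the lowest Olfr2+ and the highest Olfr2- sample were close. On the log2 scale Mrc1 differed by 1.87 ± 0.94 (SE, adjusted p = 0.163 by edgeR) over all columns and 1.54 ± 1.03 (SE, adjusted p = 0.594 by edgeR) below 60 M counts. Scaled by library totals the Mrc1 difference was 0.55 over all columns and 0.70 below 60 M counts. The lowest single column was in fact an Olfr2+ one, 4B at 46.5 CPM.

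Folr2 (ENSMUSG00000032725.9), folate receptor beta, followed the depth set. It was at 105, 94.5 and 1.04 CPM in Olfr2+ samples 2, 3 and 4 and at 1.01, 1.82 and 2.39 CPM in Olfr2- samples 1, 3 and 4. Olfr2+ sample 4 lay within the Olfr2- range. By column, 6 of the 7 deeper Olfr2+ columns were at 24.96 CPM or more, column 2D was at 0.665 CPM, the 3 other Olfr2+ columns were at 0.745 to 1.24 CPM and the Olfr2- columns at 1.09 to 4.68 CPM. Its fold change on the log2 scale was 5.26 ± 1.58 (SE, adjusted p = 0.0675 by edgeR) over all columns and -0.50 ± 0.99 (SE, adjusted p = 0.873 by edgeR) in the columns below 60 M counts. It was -0.58 with the depth set as a covariate, the opposite direction. Folr2 was called over all columns in 5 of 16 other settings. DESeq2 called it (adjusted p = 0.00101 by DESeq2). So did edgeR with no filter or with the library name as unit (adjusted p of 0.0428 and 0.0374 by edgeR). It was also called without Olfr2+ sample 4 or without column 2C (adjusted p of 0.0391 and 0.0443 by edgeR).

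Lyve1 (ENSMUSG00000030787.3), the hyaluronan receptor, was high in sample 3 alone. It was at 0.102, 120 and 1.16 CPM in Olfr2+ samples 2, 3 and 4 and at 1.61, 1.18 and 4.83 CPM in Olfr2- samples 1, 3 and 4. Olfr2+ sample 2 was the lowest of all 6 samples, although its 4 columns are deep: columns 2B and 2C had 0 counts, which allows up to 3 counts each, and columns 2A and 2D had 12 and 6. Columns 3A, 3B and 3C held 3410, 11808 and 7725 counts, and 3D, which shares a library name with 3C, held 38. Lyve1 had a log2 fold change of 3.99 ± 1.78 (SE, adjusted p = 0.132 by edgeR) over all columns, -1.93 without Olfr2+ sample 3 and -1.04 ± 1.13 (SE, adjusted p = 0.760 by edgeR) in the columns below 60 M counts. Prox1, the defining factor of lymphatic endothelium, was at 0 to 0.0815 CPM in the deeper Olfr2+ columns where Lyve1 was high or at 0, and Ccl21a was at 0 in all columns. Pdpn, a membrane glycoprotein of lymphatic endothelium and of other cells, was at 48.0 to 693 CPM in the deeper Olfr2+ columns and 1.30 to 98.4 CPM in the other Olfr2+ columns, against 2.99 to 54.8 CPM in Olfr2- columns. Its sample values did not overlap over all columns, with a log2 difference of 4.35 ± 1.27 (SE, adjusted p = 0.0634 by edgeR). Of the 6 lymphatic markers tested over all columns, 2 (Pdpn and Lyve1) were positive, with a median log2 fold change of -2.40. Prox1, Flt4, Reln and Mmrn1 were at -1.95, -2.85, -3.01 and -3.05, with all Olfr2+ samples below all Olfr2- samples. The 7 lymphatic markers, Lyve1 among them, summed to 64.3 to 694 CPM in the deeper Olfr2+ columns, 4.02 to 102 CPM in the other Olfr2+ columns and 22.1 to 57.6 CPM in Olfr2-, and 0 of the 6 tested passed. Their part in the Lyve1 values was not tested.

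Cd209f (ENSMUSG00000051906.15), a C-type lectin of the DC-SIGN family, was at 2.71, 90.2 and 1.13 CPM in Olfr2+ samples 2, 3 and 4 and at 0.993, 0.766 and 0.983 CPM in Olfr2- samples 1, 3 and 4. The groups did not overlap, yet sample 4 exceeded the Olfr2- samples by a small margin. The difference rested on columns 3B (107 CPM) and 3C (119 CPM), while 3A, which shares a library name with 3B, had 0.245 CPM. On the log2 scale Cd209f differed by 5.10 ± 1.75 (SE, adjusted p = 0.0837 by edgeR) over all columns and 0.28 ± 0.87 (SE, adjusted p = 0.924 by edgeR) below 60 M counts, where scaling by library totals turned it to -0.57. Its close paralogs lie in the same gene family and may share reads with it, so its counts are less certain than those of the other members.

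Cd163 (ENSMUSG00000008845.9), the receptor for haptoglobin-bound haemoglobin, was at 5.48, 42.4 and 8.70 CPM in Olfr2+ samples 2, 3 and 4 and at 2.34, 2.30 and 0.643 CPM in Olfr2- samples 1, 3 and 4. The groups did not overlap. Cd163 had a log2 fold change of 3.42 ± 1.57 (SE, adjusted p = 0.139 by edgeR), against 1.56 ± 1.28 (SE, adjusted p = 0.670 by edgeR) below 60 M counts, where 1 Olfr2+ sample lay within the Olfr2- range and the other above it. In those columns column 4B, at 16.2 CPM, stood above 3D and 4A, at 0.857 and 0.639 CPM, and without Olfr2+ sample 4 the log2 fold change was -0.90.

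The receptors for dying cells and for complement each owed most of their Olfr2+ counts to a single column. Timd4 (ENSMUSG00000055546.6), the phosphatidylserine receptor TIM-4, was at 1.92, 16.9 and 1.25 CPM in Olfr2+ samples 2, 3 and 4 and at 0.556, 7.60 and 0.456 CPM in Olfr2- samples 1, 3 and 4. Sample 3 was the highest in each group and the groups overlapped. Column 3D alone, at 69.2 CPM, held 79.7% of the CPM summed over the Olfr2+ columns. Timd4 had a log2 fold change of 1.22 ± 1.60 (SE, adjusted p = 0.576 by edgeR) over all columns and 3.71 ± 1.82 (SE, adjusted p = 0.486 by edgeR) below 60 M counts, and without Olfr2+ sample 3 these were -0.91 and -1.16.

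Vsig4 (ENSMUSG00000044206.3), the complement receptor CRIg, was present at more than 2 CPM in 1 column. It was at 0.0681, 15.6 and 0.137 CPM in Olfr2+ samples 2, 3 and 4 and at 0.0794, 0.0705 and 0.769 CPM in Olfr2- samples 1, 3 and 4. Column 3A had 2990 counts (34.9 CPM), which was 98.7% of the CPM summed over the Olfr2+ columns, and the next Olfr2+ column had 0.186 CPM. The log2 fold change of 4.09 ± 1.92 (SE, adjusted p = 0.146 by edgeR) therefore came from 1 column, and the gene did not reach the expression filter in the columns below 60 M counts. The 4 Kupffer cell markers together stayed at or below 7.15 CPM in every column.

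**Figure D4:**
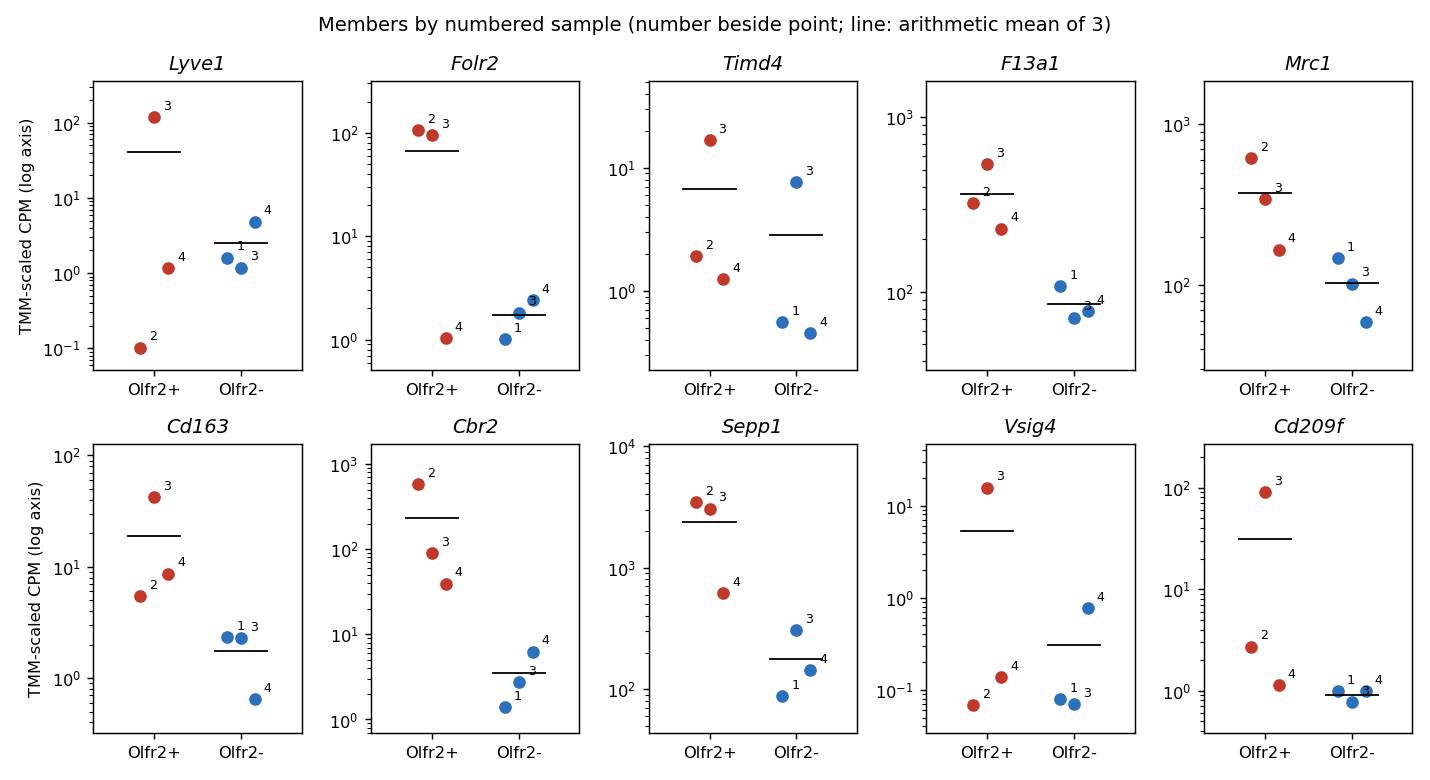
TMM-scaled CPM (y axis, log axis, a separate range in each panel) of the 10 markers in the numbered samples, Olfr2+ (left, red) and Olfr2- (right, blue), with the sample number beside each point and a line at the arithmetic mean of 3. The groups do not overlap for F13a1, Mrc1, Cd163, Cbr2, Sepp1 and Cd209f, and single samples lie far above the rest for Lyve1, Vsig4 and Cd209f.

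Levels were compared between members per kb of exon (TMM-scaled CPM divided by the length of the merged exons in the GENCODE annotation on GRCm38). In Olfr2+ the order by mean level was Sepp1, Cbr2, Mrc1, F13a1, Folr2, Cd209f, Lyve1, Vsig4, Cd163 and Timd4, and in Olfr2- it was Sepp1, Mrc1, F13a1, Cbr2, Timd4, Folr2, Lyve1, Cd209f, Cd163 and Vsig4. Sepp1 led in both, at 838 ± 543 CPM per kb in Olfr2+ and 62.9 ± 39.6 CPM per kb in Olfr2- (SD, n = 3 each). Mrc1 and F13a1 were neighbours in both groups, at 59.2 ± 35.8 and 53.9 ± 23.4 CPM per kb in Olfr2+ and at 16.2 ± 6.87 and 12.7 ± 2.92 CPM per kb in Olfr2-, so that their order was within the spread. Cbr2 was at 178 ± 224 CPM per kb in Olfr2+, a spread that covers its neighbours Mrc1 and F13a1, and at 2.62 ± 1.89 CPM per kb in Olfr2-. From Folr2 downwards in Olfr2+, and from Timd4 downwards in Olfr2-, neighbours differed by less than the larger SD of the pair.

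Columns that share a library name differed strongly in these genes. Of 70 comparisons (10 members in 7 such pairs), 22 differed over 4-fold on CPM + 1, which is 31.4%, and the share was 41.5% for the 8746 genes averaging at least 10 CPM. These shares are not on equal terms, because 3 members (Cd163, Timd4 and Vsig4) averaged under 10 CPM, where adding 1 damps a ratio. 7 of the 22 were in the pair 3C and 3D, which lies across the depth sets, and the other 15 were within a set. Cbr2 was the least reproducible member, at 134 CPM in Olfr2+ 3A and 0.285 CPM in 3B, and its median difference over the pairs was 3.90 on the log2 scale. F13a1 stayed within 4-fold in all 7 pairs, with a largest difference of 1.85 on the log2 scale.

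**Figure D5:**
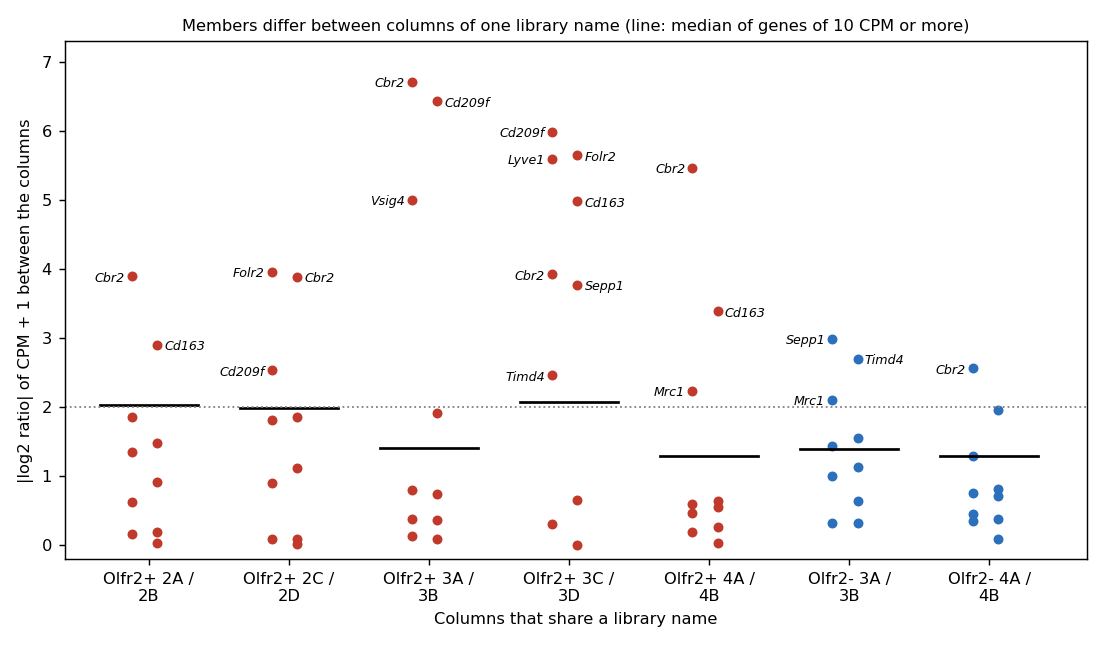
Absolute log2 ratio of CPM + 1 (y axis) between 2 columns that share a library name (x axis, Olfr2+ pairs in red left of the Olfr2- pairs in blue), with a point per marker. Black lines are medians over genes averaging at least 10 CPM (1.29 to 2.08), the dotted line is 4-fold, and points above it carry the gene's name, Cbr2 in 6 of the 7 pairs.

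The members did not rank the 15 columns alike. Over their 45 pairs Spearman's rho of log2(CPM + 1) was positive in 23 and negative in 22, with a median of 0.014, from -0.587 (Timd4 and Vsig4) to 0.656 (Lyve1 and Cd209f). The columns share libraries and depth sets, so these are descriptions with no test. The highest columns were also spread out: Olfr2+ 3C was highest for 3 members (Folr2, Cd163, Cd209f), 2C, 3A and 3B for 2 each and 3D for Timd4. No Olfr2- column was highest for any member.

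Of genes averaging at least 10 CPM (8362 with a proper symbol), the 3 whose ranking of the 15 columns was most like that of a member were taken. For Sepp1 they were Ftl1, a ferritin light chain (rho 0.932), Osr1 (0.925) and Dcn (0.921), the last with a rho of 0.679 in the 7 deeper and 0.714 in the 8 shallower columns. For Cbr2 they were Cbx7 (0.950), Dnajc4 (0.932) and Wdsub1 (0.918), for Folr2 they were Tfpi (0.904), Pdxdc1 (0.896) and Mrpl24 (0.893), and for Lyve1 they were Cecr2 (0.971), Mucl1 (0.971) and Fbxw9 (0.892). For Cd209f they were Plin4 (0.939), Ankrd9 (0.925) and Frk (0.904). F13a1 was most like Ywhab (0.861), Abca9 (0.857) and Nr1d2 (0.843), and Mrc1 most like Cysltr1, a cysteinyl leukotriene receptor (0.782), Zswim4 (0.739) and Ermp1 (0.729). Cd163, Timd4 and Vsig4 averaged under 10 CPM and were not examined. No member was among the 3 most alike of any other.

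Further genes of the resident-like state included 3 that rose over all columns. Of 24 such genes, 3 rose, 0 fell and 21 did not pass over all columns, with a median log2 fold change of 2.47. Gas6, the bridging ligand of the TAM receptors, was at 1267 ± 1067 CPM in Olfr2+ and 39.7 ± 20.4 CPM in Olfr2- (SD, n = 3 each), which is 4.996 ± 1.07 on the log2 scale (SE, adjusted p = 0.0300 by edgeR). Fcgrt, the neonatal Fc receptor, was at 978 ± 964 CPM in Olfr2+ and 53.9 ± 44.4 CPM in Olfr2-, which is 4.18 ± 1.09 on the log2 scale (SE, adjusted p = 0.0487 by edgeR), although its groups overlapped. Mgl2, a galactose-binding lectin, was at 349 ± 101 CPM in Olfr2+ and 11.9 ± 1.66 CPM in Olfr2-, which is 4.88 ± 1.08 on the log2 scale (SE, adjusted p = 0.0351 by edgeR). In the columns below 60 M counts 0 of the 24 passed and the median was 0.01. Gas6 and Fcgrt were at 1.08 and 0.61 there, while Mgl2 was at 318 ± 125 CPM in Olfr2+ (SD, n = 2) and 14.3 ± 3.08 CPM in Olfr2- (SD, n = 3), which is 4.48 ± 1.19 on the log2 scale (SE, adjusted p = 0.411 by edgeR) without overlap.

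Of 14 genes for the growth factors and transcription factors of macrophages, 0 passed in either comparison, with medians of 1.44 over all columns and 0.83 below 60 M counts. The most abundant were Klf4, the CSF1 receptor Csf1r, Zeb2 and Id3, with log2 fold changes of 1.82, 1.59, -0.14 and 2.71 over all columns and 0.44, 1.04, 0.62 and 1.55 below 60 M counts. Of 15 partners in the uptake of dying cells and the handling of haemoglobin, Gas6 and Mfge8 rose, 0 fell and 13 did not pass over all columns (median 2.09), and 0 passed below 60 M counts (median 1.08). Mfge8, a bridge between phosphatidylserine and integrins, was at 497 ± 473 CPM in Olfr2+ and 8.82 ± 5.20 CPM in Olfr2- (SD, n = 3 each), with overlapping groups and a log2 fold change of 5.82 ± 1.31 (SE, adjusted p = 0.0370 by edgeR), and it was at -0.12 below 60 M counts.

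The markers of macrophages as such were all positive over all columns, like the members. By column, both sums were mostly higher in the deeper Olfr2+ columns, with exceptions in single columns. Of 12 identity genes 4 rose (Lyz2, C1qb, C1qc and Cd14), 0 fell and 8 did not pass over all columns. Below 60 M counts 0 passed and 9 were positive. Their summed level was 7612 to 15623 CPM in the deeper Olfr2+ columns, 2477 to 4266 CPM in the other Olfr2+ columns and 1631 to 8703 CPM in Olfr2-. The members summed to 1348 to 3528, 888 to 1038 and 427 to 800 CPM in the same order. Sepp1 alone was 17.4 to 82.8% of the members' sum by column, and columns of a numbered sample are not replicates. Among the exceptions, column Olfr2- 4B had 8703 CPM of identity genes and 443 CPM of members, while Olfr2+ 3D had 2477 and 1038 CPM. The part of macrophage content in the members' differences was not tested.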

How the data were processed

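Smart-Seq2 cDNA (18 PCR cycles, then 9 for the library, per the labels' protocols) was sequenced. The authors deposited raw whole-number counts per gene. STAR 2.7.1, DRAGEN, DESeq2 1.34 and GRCm39 are named, per the submitters' processing notes. The step each served, the strand option and the release of the annotation were not given in the sources used here. Smart-Seq2 marks no strand and has no molecular identifiers, so reads of overlapping genes cannot be told apart and counts are not independent molecules. The members and lists were chosen with earlier results of these data known.

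Titles carry a number, taken to mean a sort, and a letter, taken to mean a repeat of it, which the labels do not state. The 15 columns carry 8 library names. No pair of columns agreed within sampling noise (chi-square per degree of freedom at least 573), so none was counted as a duplicate. Counts were summed per numbered sample and tested with edgeR 4.0.16 (R 4.3.3) quasi-likelihood tests, TMM scaling, its expression filter and Benjamini-Hochberg adjustment over all genes tested (0.05), over all columns and in columns below 60 M counts. Standard errors come from the F statistic. TMM factors were 0.485 to 0.868 in Olfr2+ and 1.34 to 1.66 in Olfr2-. The fits were tested on simulated data. Alternatives were DESeq2 1.42.0, limma 3.58.1 (voom), other scalings, filters and units, a replicate block, the depth set as covariate and omission of each sample. Omission of column 2C was added after seeing the data.

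The named genes are the members, list genes that passed (otherwise the 4 highest by mean CPM) and the 3 genes most like each member averaging at least 10 CPM. Decorin, the sort markers, the lymphatic markers, the platelet genes and Mgl2's values below 60 M counts are given beside results they touch.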

Additional observations from a re-analysis of the deposited data

Results flagged for a closer look

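In 7 of the 20 groups examined (10 members, the 10 Olfr2+ columns and the 5 Olfr2- columns each), the highest column stood apart from its own group by Dixon's 95% criterion. Chance meets this criterion in at most about 1 in 20 groups of independent, normally distributed values. These columns share samples and differ in depth, so that rate need not hold here. In Olfr2+ these were Timd4 in column 3D, at 69.2 CPM with the next column at 11.7 CPM, Cd163 in 3C, at 57.8 CPM with the next at 29.4 CPM, Cbr2 in 2C, at 979 CPM with the next at 134 CPM, and Vsig4 in 3A, at 34.9 CPM with the next at 0.186 CPM. In Olfr2- they were Lyve1 in column 4A, at 11.3 CPM with the next at 3.39 CPM, Timd4 in 3A, at 15.3 CPM with the next at 1.51 CPM, and Cbr2 in 4B, at 18.8 CPM with the next at 4.79 CPM. No 2 of the 4 Olfr2+ values were in the same column.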

How the results depend on the processing

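Over all columns 2 members were called. DESeq2 called 4 (Cbr2, Cd163, Folr2 and Sepp1, of 7 given an adjusted p), limma-voom 0, library totals 1 (Cbr2), the replicate block 0 and the depth covariate 0, and without column 2C they were Folr2 and Sepp1. Omitting each sample gave 0 to 3: it was 0 without Olfr2+ 2 or Olfr2- 1, and 1 without Olfr2+ 3, Olfr2- 3 or Olfr2- 4. Of 16 settings, Cbr2 lost its call in 7 and Sepp1 in 8, and neither changed direction.

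Over all columns 385 genes were called (273 higher, 112 lower). The number was 6711 with DESeq2, 0 with limma-voom, 881 with no filter, 1568 with the library name as unit, 2 with the replicate block, 0 with the depth covariate, 767 without column 2C and 6 (without Olfr2+ 2) to 1086 (without Olfr2+ 4) when a sample was omitted, with 81 to 120 for each of the other 4. Library totals gave 86 higher and 310 lower and put the median over all genes at -0.88 in place of 0.24 (log2), and at -1.26 in place of -0.43 below 60 M counts. A mean of at least 10 CPM gave 501 higher and 5 lower. Below 60 M counts 0 members were called in all settings run, and the genes called were 0 as reported and 1250 with DESeq2, 196 with no filter, 4 at 10 CPM or more and 10 with the replicate block. Equal numbers did not deviate together (correlations 0.016 for number 3 and -0.037 for number 4). Because the Olfr2+ samples also differ in depth set, this cannot decide whether equal numbers were paired.

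Of 265 fold changes of members under other settings 7 reversed. When samples were omitted, over all columns Lyve1 ran from -1.93 (without Olfr2+ 3) to 4.80 and Timd4 from -0.91 (without Olfr2+ 3) to 3.90, while with the depth covariate Lyve1 was at -1.12 and Folr2 at -0.58. Below 60 M counts Timd4 ran from -1.16 (without Olfr2+ 3) to 6.31, Cd163 from -0.90 (without Olfr2+ 4) to 2.46, and Cd209f was at -0.57 on library totals. The cause was not tested. Sepp1, F13a1 and Mrc1 had at least 1390 counts in every column, which bears on counting error only, whereas Vsig4 had 3 counts or fewer in 7 of 15.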
